A study of Homo sapiens with 6 samples.

Results

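The 10 genes described here are the growth factor gene IGF2, its receptors IGF1R and IGF2R, the insulin receptor INSR, the IGF-binding proteins IGFBP2, IGFBP3 and IGFBP5, and the IGF2 mRNA-binding proteins IGF2BP1, IGF2BP2 and IGF2BP3. They were chosen by symbol, with earlier results of these data known. Each symbol matched 1 of the 60676 Ensembl identifiers in the tables. The RNA came from SK-N-BE, an established human neuroblastoma line that takes on neuronal features in retinoic acid. All cells had been differentiated for 1.5 days in a medium that held 10 μM retinoic acid. One group received a scrambled siRNA (si-SCR) and the other a pool of siRNAs that targets CyCoNP, a long noncoding RNA (si-CyCoNP), and each group has 3 libraries. A single cell line, a single time point and a single siRNA pool limit what the groups stand for, and no group without siRNA was analysed here.

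IGF2 is a secreted growth factor of fetal tissue that is expressed from an imprinted locus, and it stimulates growth by binding IGF1R and one of the isoforms of INSR, both of which are receptor tyrosine kinases. IGF2R binds IGF2 and carries it to lysosomes, and the IGFBPs hold IGFs in the extracellular fluid. The IGF2BPs are cytoplasmic RNA-binding proteins named for their binding to IGF2 mRNA, and they affect the stability, transport and translation of many transcripts. Neuroblastoma arises from the sympathoadrenal lineage, in which IGF2 is a known growth factor.

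The targeted RNA was checked first. CyCoNP is annotated as LINC02381 (chr12:54126019-54147485, plus strand), and its level fell from 14.4 ± 1.31 FPKM (SD, n = 3) to 1.10 ± 0.498 FPKM, a 13.7-fold lower level. FPKM is the number of fragments per kilobase of gene, scaled to the total count of the library. The log2 fold change was -3.78 (SE 0.19, edgeR quasi-likelihood test, adjusted p = 6.84e-14). Total counts per library ranged from 3762009 to 4799407, and libraries of the same group correlated at 0.984 to 0.987 across genes. These totals are far below the average number of reads per sample that the paper reports, and the reason was not tested. A marker was said to rise or fall when its adjusted p was under 0.05 (edgeR quasi-likelihood test). Of all tested genes, 14.2% rose and 14.2% fell. All 11 markers of adrenergic neuroblastoma were tested, 8 of them fell and 1 (MYCN) rose. Their summed FPKM was 2680 to 3160 in si-SCR, against 2130 to 2310 in si-CyCoNP. This sum includes MYCN, whose mean of 428 FPKM rose to 806, so it understates the fall of the other markers. Of 12 mesenchymal or Schwann-like markers, 6 were tested, 2 rose and 3 fell, the summed FPKM was 75.0 to 87.2 against 59.7 to 64.8, and PRRX1 was at 0. Of 5 fibroblast markers, 4 were tested, 2 rose and 1 fell, with a summed FPKM of 5.34 to 9.43 against 7.99 to 9.85. Of 4 blood markers, 1 was tested and rose, with a summed FPKM of 1.58 to 2.09 against 2.49 to 5.44 and HBB at 0. None of 4 epithelial markers reached the level for testing, with a summed FPKM of 0.807 to 1.38 against 0.715 to 1.76, and CDH1 and KRT5 were at 0. The mesenchymal or Schwann-like and fibroblast markers that rose reached that level in si-CyCoNP alone. The part of these marker changes in the results below was not tested, and in bulk RNA fewer cells of a type and less RNA per cell cannot be told apart.

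Known targets of the let-7 family include members of the IGF axis. The microRNAs whose matches were sought were hsa-miR-4492, which the study names, and hsa-let-7a-5p, a member of that family. Their mature sequences, from RefSeq (GRCh38), are shown with the seed (bases 2 to 8) in capitals.
hsa-miR-4492: gGGGCUGGgcgcgcgcc
hsa-let-7a-5p: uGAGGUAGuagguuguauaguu
The mature miR-4492 lies at chr11:118910765-118910781 (plus strand) and the let-7a copy read here at chr9:94175962-94175983 (plus strand). A seed match is the letters CCAGCCC for miR-4492 and CTACCTC for let-7a in the longest annotated 3′ UTR of a gene, read on the strand of the mRNA. Of 10486 tested genes with such a UTR, 25.1% held a miR-4492 match and 12.3% a let-7a match. The median UTR was 1585 bases long, and those of 7 of the 8 members searched, IGFBP2 being the exception with 454 bases, were longer.

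IGFBP5 held 3 miR-4492 matches in 4646 bases and no let-7a match. Of these, 2 are shown in capitals within 29 bases of the transcript strand (chr2, minus strand), because IGFBP5 had the largest fold change among the tested members.
IGFBP5 at chr2:216676322-216676350: aactttcacgtCCAGCCCtggcctggggt
IGFBP5 at chr2:216675468-216675496: ccaggcagaggCCAGCCCtccgtggtgca
IGF2 held 1 miR-4492 match in 3875 bases and no let-7a match.
IGF2 at chr11:2129452-2129480, minus strand: gcacttgccgaCCAGCCCcttgcgtcccc
IGF2BP1, whose UTR had 6701 bases, held 4 matches to each seed, and its 4 let-7a matches are shown because it had the most among the members (plus strand).
IGF2BP1 at chr17:49051065-49051093: tgcgaagtaaaCTACCTCaaggtatgaag
IGF2BP1 at chr17:49053702-49053730: agtgctagtaaCTACCTCacagagcccca
IGF2BP1 at chr17:49054356-49054384: aaatggattaaCTACCTCaatccttacag
IGF2BP1 at chr17:49055001-49055029: ttttgttttatCTACCTCttagcaaaaca
IGF1R held 2 matches to each seed, INSR held 1 to each, IGF2R and IGF2BP3 held 1 let-7a match each, and IGFBP2 held none. Members with a miR-4492 match included genes that rose (IGF2, IGF2BP1), genes that fell (INSR, IGFBP5) and a gene that did not pass the test (IGF1R). Those with a let-7a match included a gene that rose (IGF2BP1), a gene that fell (INSR) and genes that did not pass (IGF1R, IGF2R, IGF2BP3). A match is a description of letters and says nothing about binding.

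The comparison of si-CyCoNP with si-SCR asked how the RNA levels of this group changed when CyCoNP was depleted. A gene was tested when its mean FPKM was at least 1 in either group, which left 13966 genes and 8 of the 10 members. A gene can reach this level in its higher group alone, and selection of that kind favours a difference. A gene was said to change when its adjusted p was under 0.05. IGF2 and IGF2BP1 rose, IGFBP5 and INSR fell, and IGF1R, IGF2R, IGFBP2 and IGF2BP3 did not pass the test. The 4 members that changed out of 8 stand beside 28.4% of all tested genes, and the 2 that rose and the 2 that fell stand beside 14.2% in each direction. IGFBP5 alone also had a log2 fold change beyond 1, which 5.26% of all tested genes had together with the adjusted p (2.28% higher and 2.98% lower). The FPKM of the groups did not overlap in 3 of the 8 members (IGF2, IGF2BP1 and, by a margin lost on rounding, IGF2R), beside 40.3% of all tested genes.

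**Figure D1:**
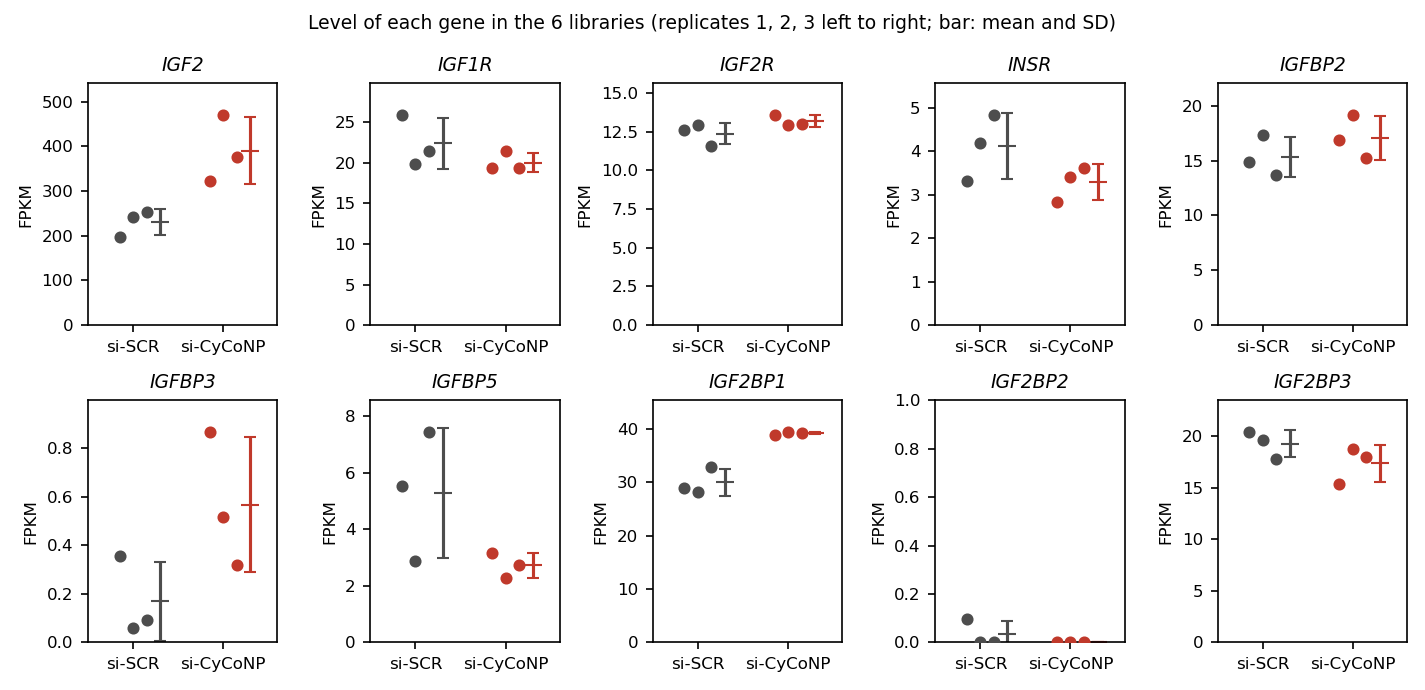
FPKM of each of the 10 genes in the 6 libraries, with a linear axis from 0 in every panel; points are libraries and the bar beside them is the mean with the SD (n = 3). IGF2 and IGF2BP1 were higher in all 3 si-CyCoNP libraries, IGFBP5 was spread from 2.88 to 7.44 in si-SCR, and IGF2BP2 had counts in a single library.

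IGF2 (chr11:2129112-2158391, minus strand) was the most abundant member per length. Its level was 198, 243 and 253 FPKM in si-SCR replicates 1 to 3 and 323, 471 and 376 FPKM in si-CyCoNP replicates 1 to 3. All 3 si-CyCoNP libraries lay above all si-SCR libraries, and si-CyCoNP replicate 2 was the highest. The mean rose from 231 ± 29.6 to 390 ± 75.1 FPKM (SD, n = 3). The log2 fold change was 0.69 (SE 0.1, approximate 95% interval 0.49 to 0.88), or 1.61-fold (edgeR quasi-likelihood test, adjusted p = 5.98e-06). In counts, IGF2 had 5312, 5729 and 7573 fragments in si-SCR, against 9692, 12529 and 9765 in si-CyCoNP. It took 0.124, 0.152 and 0.158% of all counted fragments in si-SCR, against 0.202, 0.295 and 0.236% in si-CyCoNP. Among the tested genes ranked by FPKM, with 1 as the highest, IGF2 stood at 147, 112 and 118 in si-SCR, against 73, 49 and 65 in si-CyCoNP.

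What the IGF2 count covers depends on the annotation, since genes on the same strand share its exons. In GENCODE v44, 3084 of its 7146 exonic bases (43.2%) also belong to INS-IGF2, a readthrough transcript with the insulin gene, or to the unnamed genes ENSG00000240801 and ENSG00000284779. Those 3 genes had 0 counts in all 6 libraries. The counter drops fragments that fit several genes, so these zeros do not show that their RNA was absent. For the same reason, IGF2 was counted on the bases that the annotation of the counting gave to it alone. That annotation was an earlier release, and the gene length behind the IGF2 FPKM was 6259 bases, so the shared stretch may differ from that of v44. If that length includes shared bases, the FPKM of IGF2, its rank and its ratio to IGF2R are too low. The microRNA gene MIR483 inside an IGF2 intron had 0 to 2 counts per library. IGF2-AS, an antisense transcript of the locus (chr11:2140501-2148666, plus strand), had 16.2, 18.3 and 20.2 FPKM in si-SCR and 16.6, 17.3 and 14.3 FPKM in si-CyCoNP. Its groups overlapped, and its log2 fold change of -0.25 (SE 0.117) did not pass the test (edgeR quasi-likelihood test, adjusted p = 0.123).

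The study's own IGF2 primers fall in the stretch that is shared in v44 and are shown for that reason, 5′ to 3′ and in lower case throughout.
IGF2 forward at chr11:2133184-2133203: attggaagaacttgcccacg
IGF2 reverse at chr11:2133565-2133584: tggagacgtactgtgctacc
Both map to an exon that INS-IGF2 and ENSG00000284779 also hold in GENCODE v44. The paper names IGF2 in a subset of the RNAs that its sequenced CyCoNP pull-down gave as interacting. It reports the enrichment of that subset by RT-qPCR on further pull-down replicates. The pull-down was not analysed here.

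IGF1R (chr15:98648539-98964530, plus strand), the tyrosine kinase receptor through which IGFs signal, had 25.9, 19.8 and 21.4 FPKM in si-SCR and 19.3, 21.4 and 19.3 FPKM in si-CyCoNP. The groups overlapped, and si-SCR replicate 1 stood above the other 5 libraries. Its means were 22.4 ± 3.16 and 20.0 ± 1.22 FPKM (SD, n = 3). The log2 fold change was -0.23 (SE 0.092, edgeR quasi-likelihood test, adjusted p = 0.0618). Leaving out si-SCR replicate 1 gave -0.10. Leaving out replicate 2 of that group gave -0.30 (adjusted p = 0.0223) and leaving out replicate 3 gave -0.29 (adjusted p = 0.0032), both past the threshold.

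INSR (chr19:7112255-7294414, minus strand), the insulin receptor, was the least abundant receptor, with 3.33, 4.20 and 4.85 FPKM in si-SCR and 2.83, 3.41 and 3.63 FPKM in si-CyCoNP. The groups overlapped, since si-SCR replicate 1 lay below 2 of the si-CyCoNP libraries. Its mean fell from 4.12 ± 0.759 FPKM to 3.29 ± 0.415 FPKM (SD, n = 3). This was a log2 difference of -0.40 (SE 0.137, approximate 95% interval -0.67 to -0.13, edgeR quasi-likelihood test, adjusted p = 0.0295). The counts behind it were 155, 171 and 251 against 147, 157 and 163. The change passed in 7 of 15 alternative fits. It no longer passed without si-SCR replicate 2 (-0.38), si-SCR replicate 3 (-0.28), si-CyCoNP replicate 1 (-0.30) or si-CyCoNP replicate 2 (-0.42), or with DESeq2 (adjusted p = 0.0717).

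IGF2R (chr6:159969082-160113507, plus strand), the mannose 6-phosphate receptor that removes IGF2 from the cell surface, had 12.6, 12.9 and 11.6 FPKM in si-SCR and 13.6, 12.9 and 13.0 FPKM in si-CyCoNP. The means were 12.4 ± 0.702 and 13.2 ± 0.38 FPKM (SD, n = 3), and the highest si-SCR library lay just under the lowest si-CyCoNP library. Its log2 difference was 0.03 (SE 0.083, approximate 95% interval -0.14 to 0.19, edgeR quasi-likelihood test, adjusted p = 0.85). Leaving out si-SCR replicate 3 gave -0.04, and leaving out si-CyCoNP replicate 1 gave -0.000528. FPKM has no correction for library composition, and scaling by library totals alone in place of TMM moved the median log2 fold change of all tested genes by 0.067, which is larger than the log2 difference of IGF2R.

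The balance of ligand and clearance receptor was read as the ratio of IGF2 to IGF2R FPKM. It was 15.7, 18.9 and 21.9 in si-SCR, against 23.7, 36.5 and 28.9 in si-CyCoNP. All si-CyCoNP libraries lay above all si-SCR libraries, and the mean went from 18.8 ± 3.1 to 29.7 ± 6.43 (SD, n = 3). With 3 against 3 libraries the exact permutation test cannot go below 0.1, and it gave 0.1 (two-sided, 0.167 after adjustment over 5 ratios and shares). The ratio of IGF1R to INSR was 7.77, 4.73 and 4.41 in si-SCR, against 6.81, 6.27 and 5.32 in si-CyCoNP. These groups overlapped fully (exact permutation test, two-sided, p = 0.8, adjusted 0.8).

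**Figure D2:**
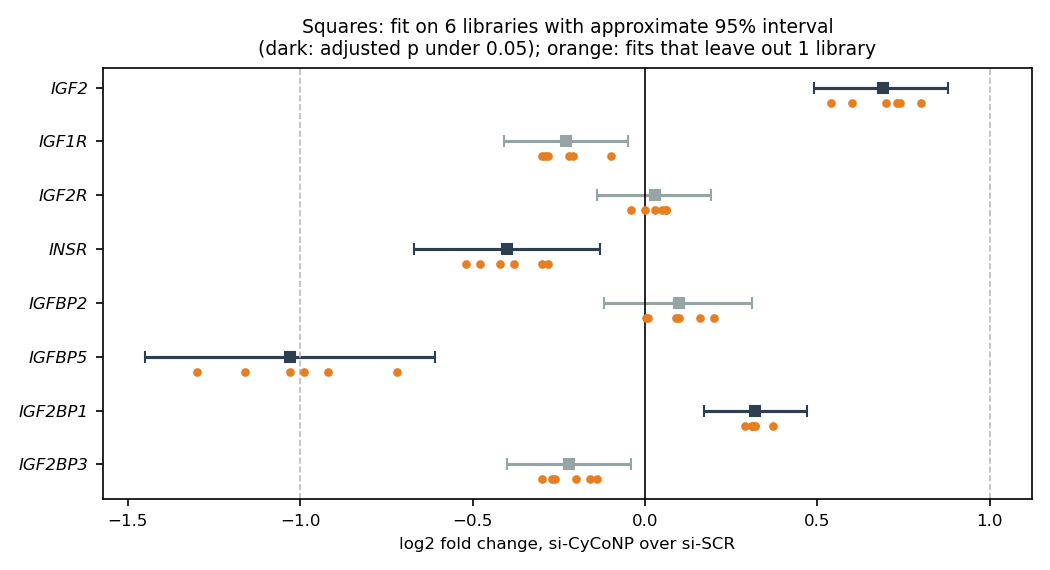
Log2 fold change of the 8 tested members, si-CyCoNP over si-SCR; squares are fits on all 6 libraries with approximate 95% intervals (dark where the adjusted p was under 0.05), orange points are fits that leave out 1 library, and dashed lines mark -1 and 1. IGF2 stayed between 0.54 and 0.80 and IGF2BP1 between 0.29 and 0.37 in those fits, while IGFBP5 ranged from -1.30 to -0.72.

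IGFBP5 (chr2:216672105-216695549, minus strand), a secreted binding protein that also attaches to the extracellular matrix, had 5.51, 2.88 and 7.44 FPKM in si-SCR and 3.16, 2.29 and 2.72 FPKM in si-CyCoNP. The groups overlapped, because si-SCR replicate 2 lay below si-CyCoNP replicate 1, while si-SCR replicates 1 and 3 lay above every si-CyCoNP library. The mean fell from 5.27 ± 2.29 to 2.72 ± 0.433 FPKM (SD, n = 3), a 2.04-fold lower level by the fit. The log2 fold change was -1.03 (SE 0.214, approximate 95% interval -1.45 to -0.61, edgeR quasi-likelihood test, adjusted p = 0.000534). The counts were low and uneven in si-SCR, at 153, 70 and 230, against 98, 63 and 73 in si-CyCoNP. Every fit that left out 1 library kept the change past the adjusted p. The log2 fold change came inside 1 without si-SCR replicate 1 (-0.99), si-SCR replicate 3 (-0.72) or si-CyCoNP replicate 2 (-0.92). The test of log2(FPKM + 1) with limma gave -0.69 and did not pass (adjusted p = 0.135).

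IGFBP2 (chr2:216632828-216664436, plus strand) is the neighbour of IGFBP5 on chromosome 2, and it encodes a secreted binding protein abundant in fetal and neural tissue. Its level was 14.9, 17.3 and 13.7 FPKM in si-SCR and 16.9, 19.2 and 15.2 FPKM in si-CyCoNP. The groups overlapped, with means of 15.3 ± 1.84 and 17.1 ± 2.03 FPKM (SD, n = 3). The fitted log2 difference was 0.10 (SE 0.111, edgeR quasi-likelihood test, adjusted p = 0.566).

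IGFBP3 (chr7:45912245-45921874, minus strand), the main IGF carrier of serum, was close to the floor. It had 7, 1 and 2 counts in si-SCR, against 19, 10 and 6 in si-CyCoNP, or 0.169 ± 0.164 and 0.566 ± 0.278 FPKM (SD, n = 3). The groups overlapped in counts and in FPKM, and the level was under the minimum for testing. When no minimum was set and 26702 genes were tested, the log2 fold change was 1.65 (SE 0.587, edgeR quasi-likelihood test, adjusted p = 0.0352).

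The other binding proteins give the setting for these values. Among IGFBP1 to IGFBP6, IGFBP4, which was not among the members, was the most abundant together with IGFBP2, at 15.9, 14.3 and 18.2 FPKM in si-SCR and 18.7, 20.6 and 19.7 FPKM in si-CyCoNP. IGFBP1 had no counts in any library. The summed FPKM of IGFBP1 to IGFBP6 was 36.7, 35.2 and 39.9 in si-SCR, against 42.9, 45.1 and 39.1 in si-CyCoNP, and the groups overlapped. IGFBP5 made up 15.0, 8.18 and 18.6% of that sum in si-SCR, against 7.36, 5.09 and 6.96% in si-CyCoNP. Its share was lower in all si-CyCoNP libraries, with means of 13.9 ± 5.31% and 6.47 ± 1.21% (SD, n = 3), and the exact permutation test gave its smallest possible p of 0.1 (two-sided, adjusted 0.167). The share of IGFBP2 was 40.6, 49.2 and 34.4% in si-SCR, against 39.4, 42.6 and 38.7% in si-CyCoNP. The range of the second group lay within that of the first (exact permutation test, two-sided, p = 0.8, adjusted 0.8).

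IGF2BP1 (chr17:48997385-49056145, plus strand), an oncofetal RNA-binding protein, was the most abundant of its family. It had 28.8, 28.2 and 32.8 FPKM in si-SCR and 38.9, 39.4 and 39.2 FPKM in si-CyCoNP. All si-CyCoNP libraries lay above all si-SCR libraries and within 1 FPKM of each other. The mean rose from 29.9 ± 2.54 FPKM to 39.2 ± 0.246 FPKM (SD, n = 3). This was a log2 difference of 0.32 (SE 0.078), or 1.25-fold (edgeR quasi-likelihood test, adjusted p = 0.00259). Counts were 1191, 1021 and 1513 against 1799, 1613 and 1565.

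IGF2BP3 (chr7:23310209-23470491, minus strand), a close paralog with fetal expression, had 20.4, 19.6 and 17.8 FPKM in si-SCR and 15.3, 18.7 and 18.0 FPKM in si-CyCoNP. The groups overlapped, with means of 19.2 ± 1.35 and 17.3 ± 1.79 FPKM (SD, n = 3). Its log2 difference was -0.22 (SE 0.094, edgeR quasi-likelihood test, adjusted p = 0.0832), and it passed without si-SCR replicate 3 (-0.30, adjusted p = 0.00617). IGF2BP2 (chr3:185643130-185825042, minus strand), the family member most widely expressed in adult tissues, had 2 counts in si-SCR replicate 1 and 0 in the other 5 libraries. Both groups of IGF2BP2 were at or under the floor of 3 counts per library, so no fold is given.

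IGF2BP1 made up 58.4, 59.0 and 64.9% of the summed FPKM of its family in si-SCR, against 71.8, 67.8 and 68.6% in si-CyCoNP. The groups did not overlap, and the mean went from 60.8 ± 3.59% to 69.4 ± 2.11% (SD, n = 3). The exact permutation test again gave its smallest possible p of 0.1 (two-sided, adjusted 0.167).

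**Figure D3:**
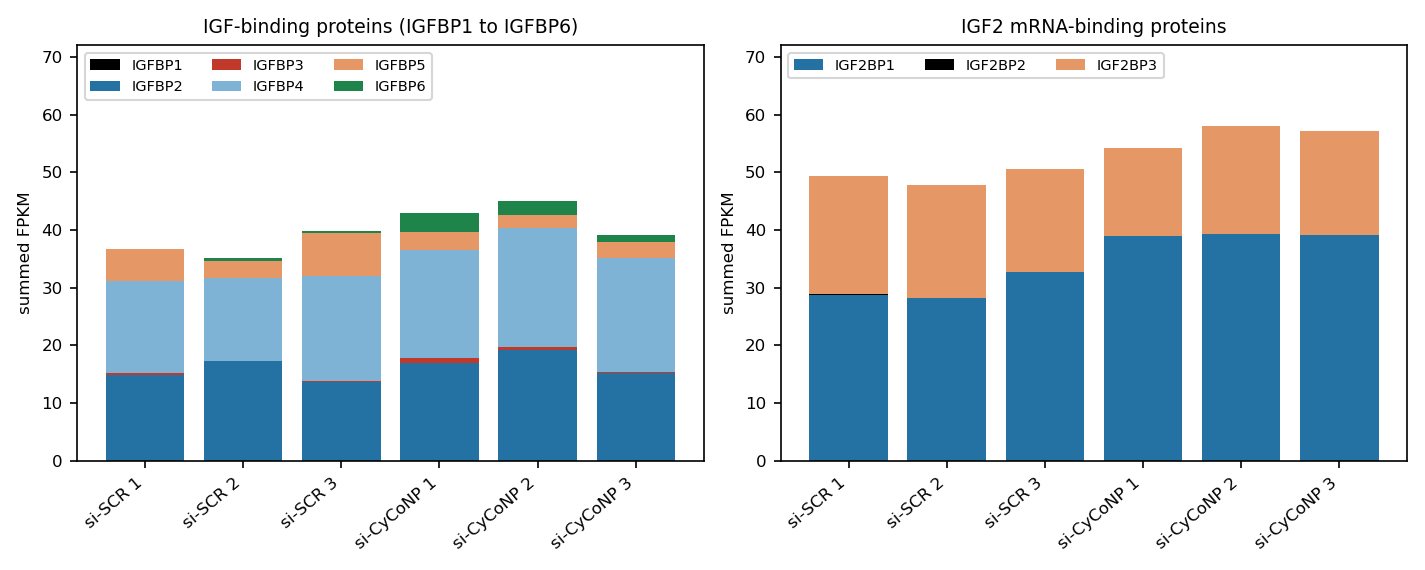
Summed FPKM of IGFBP1 to IGFBP6 (left) and of the 3 IGF2BPs (right) in each library, stacked by gene, with both axes from 0. IGFBP2 and IGFBP4 made up most of the left bars. The IGFBP5 layer was 2.29 to 3.16 FPKM in si-CyCoNP, against 2.88 to 7.44 FPKM in si-SCR, and these ranges overlapped. On the right, the IGF2BP1 layer was 38.9 to 39.4 FPKM in si-CyCoNP, against 28.2 to 32.8 FPKM in si-SCR.

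Ordered by mean FPKM in si-SCR, the members ran IGF2, IGF2BP1, IGF1R, IGF2BP3, IGFBP2, IGF2R, IGFBP5, INSR, IGFBP3 and IGF2BP2. IGF1R stood above IGF2BP3 in each si-SCR library, though their ranges overlapped. IGFBP5 and INSR also overlapped and changed places between si-SCR libraries, so their order was not resolved by 3 libraries. In si-CyCoNP the order was the same except that INSR stood before IGFBP5, again with overlapping libraries, and IGF2BP3 overlapped IGFBP2. The genes whose normalised log2 counts were most like those of IGF2 over the 6 libraries were INAFM2 (Pearson r = 0.992), ARRDC1-AS1 (0.991), AKT1S1 (0.99), EIF2AK1 (0.987) and FEN1 (0.987). These are the highest of 13966 values over 6 points that share the group difference, and they are given as a description. AKT1S1, which encodes an mTORC1-associated substrate of AKT, had 11.4, 12.5 and 14.1 FPKM in si-SCR and 18.1, 24.7 and 20.6 FPKM in si-CyCoNP.

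The remaining genes of the pathway were read by role, in lists that were also chosen with earlier results of these data known. Each list stands beside the 14.2% of all tested genes that rose and the 14.2% that fell. The median log2 fold change over all tested genes was 0.01. Of 9 other ligands, receptors and binding proteins, 5 were tested, 2 rose and 1 fell (median 0.21). IGF1, the other IGF ligand, had no counts, and neither had IGFALS, the serum partner of IGFBP3. IGFBP6, a binding protein that prefers IGF2, had 0, 3 and 3 counts in si-SCR, against 21, 14 and 7 in si-CyCoNP and rose (edgeR quasi-likelihood test, adjusted p = 0.00407), with si-SCR at the floor, a call lost with limma on log2(FPKM + 0.1) (adjusted p = 0.0611). IGFBP7, a distant relative with low affinity for IGFs, fell from 11, 7 and 7 counts to 0, 4 and 1 (edgeR quasi-likelihood test, adjusted p = 0.0243). The fall of IGFBP7 no longer passed without si-CyCoNP replicate 1 (adjusted p = 0.118) or replicate 3 (adjusted p = 0.0763), with DESeq2 (adjusted p = 0.055) or with limma (adjusted p = 0.129 and 0.121), and it passed in 8 of the 13 alternatives that tested it. IGFBP6 reached the level for testing in si-CyCoNP alone and IGFBP7 in si-SCR alone, the higher group of each. IGFBPL1, an IGFBP-like gene, rose from 22.1 ± 0.938 to 30.7 ± 3.23 FPKM (SD, n = 3).

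Of 6 genes for proteases that cut IGFBPs and their inhibitors, 3 were tested, and ADAM12, a metalloprotease that cleaves IGFBP3 and IGFBP5, fell by 0.46 on the log2 scale (SE 0.114, edgeR quasi-likelihood test, adjusted p = 0.00289), a call lost with limma. The median of that list was -0.29. Of 13 genes of the IGF2 locus and its regulators, 6 were tested and 3 rose (median 0.28). These were E2F3, a factor that can activate the IGF2 promoter (log2 fold change 0.44), CTCF, the insulator protein of the imprinted domain (0.27), and KCNQ1OT1, an imprinted noncoding RNA of the neighbouring domain (0.36). KCNQ1OT1 reached the level for testing in si-CyCoNP alone, at 1.28 FPKM, against 0.953 in si-SCR. E2F3 passed in all 15 alternatives, CTCF in 10 and KCNQ1OT1 in 9, and 1 gene of the list rose with DESeq2 and without si-CyCoNP replicate 2. H19, the imprinted partner of IGF2, had 0, 1 and 1 counts in si-SCR, against 2, 0 and 5 in si-CyCoNP and was not tested.

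Of 13 receptor substrates, adaptors and phosphatases, 8 were tested, 3 rose and none fell (median 0.15), and 1 fell without si-SCR replicate 3. SH2B1, an adaptor of insulin and IGF receptors, rose 2.01-fold from 3.09 ± 0.219 to 6.53 ± 0.168 FPKM (SD, n = 3; edgeR quasi-likelihood test, adjusted p = 7.45e-07). Of 23 genes of the PI3K, AKT and mTOR relay, 21 were tested, 2 rose, 4 fell and 15 did not pass (median -0.06). The number that rose was 1 with DESeq2 and without si-SCR replicate 2, si-SCR replicate 3 or si-CyCoNP replicate 1, and 4 with library totals alone, and the number that fell was 2 with limma on log2(FPKM + 0.1). AKT1, the kinase downstream of PI3K, rose 1.49-fold (edgeR quasi-likelihood test, adjusted p = 2.45e-05). RPS6KB1, the S6 kinase downstream of mTORC1, was 1.54-fold lower (edgeR quasi-likelihood test, adjusted p = 5.06e-05).

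Of 18 FOXO factors and FOXO target genes, 17 matched a symbol and 11 were tested, of which 7 fell and none rose (median -0.40), and 2 fell in each limma test. FOXO factors are transcription factors that AKT keeps out of the nucleus. FOXO3 fell from 22.0 ± 0.856 to 9.59 ± 0.131 FPKM (SD, n = 3), a log2 fold change of -1.27 (edgeR quasi-likelihood test, adjusted p = 2.45e-11). FOXO4 was 2.64-fold lower (edgeR quasi-likelihood test, adjusted p = 0.00426) on 30, 53 and 36 counts in si-SCR. FOXO4 passed in 12 of the 15 alternatives. Among those in which it did not, its log2 fold change was -1.02 without si-SCR replicate 2 (edgeR quasi-likelihood test, adjusted p = 0.0524). It reached the level for testing in si-SCR alone, at 2.52 FPKM, against 0.985 in si-CyCoNP. CITED2, a transcriptional co-regulator, was 1.86-fold lower (edgeR quasi-likelihood test, adjusted p = 0.00277).

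Of 13 genes of mannose 6-phosphate sorting and retrieval, the route that IGF2R serves, 12 were tested, 3 rose and 2 fell (median 0.17). The number that rose was 1 with DESeq2 and without si-CyCoNP replicate 1, and 5 with library totals alone. The number that fell was 1 with DESeq2, library totals alone and limma, and without si-SCR replicate 1, si-CyCoNP replicate 2 or si-CyCoNP replicate 3. SORT1, a sorting receptor that shares this route, fell from 20.7 ± 1.65 to 9.94 ± 1.18 FPKM (SD, n = 3), 2.17-fold lower (edgeR quasi-likelihood test, adjusted p = 1.54e-09). Of 15 oncofetal genes and RNA-stability partners of the IGF2BPs, 12 were tested, 4 rose and 3 fell (median 0.08), and 2 rose without si-SCR replicate 2, si-CyCoNP replicate 2 or si-CyCoNP replicate 3. MYCN, the amplified oncogene of many neuroblastomas, rose 1.80-fold (edgeR quasi-likelihood test, adjusted p = 2.65e-09). TRIM71, an oncofetal RNA-binding protein, went from 0.853 ± 0.157 to 3.19 ± 0.252 FPKM (SD, n = 3). This was a 3.54-fold rise (edgeR quasi-likelihood test, adjusted p = 2.77e-08), and TRIM71 reached the level for testing in si-CyCoNP alone. CTNNB1, which encodes β-catenin and is a known IGF2BP1 client mRNA, was 1.73-fold lower (edgeR quasi-likelihood test, adjusted p = 5.08e-08). Of 13 m6A writers, erasers and other readers, a group listed because the IGF2BPs read m6A, all were tested, 2 rose, none fell and 11 did not pass (median 0.03), and 1 rose without si-SCR replicate 2 and in each limma test.

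**Figure D4:**
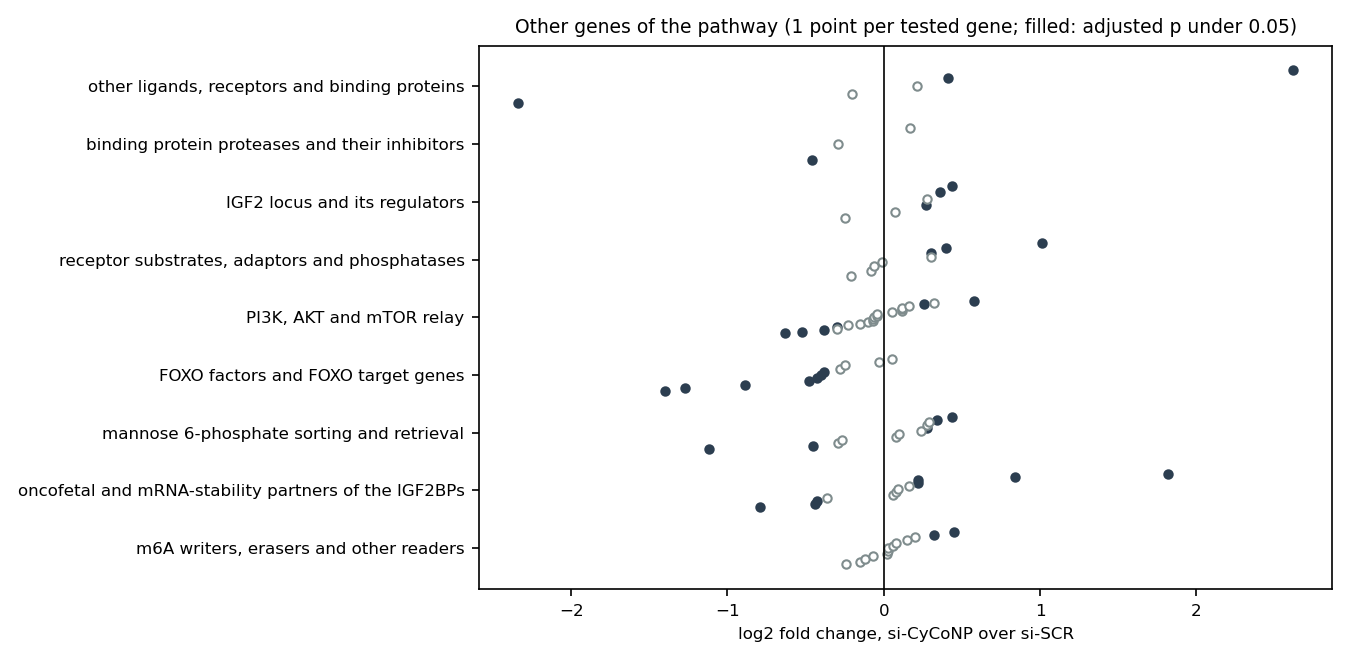
Log2 fold change of every tested gene of the 9 other lists, si-CyCoNP over si-SCR, 1 point per gene, filled where the adjusted p was under 0.05. In the FOXO list 7 of 11 points are filled and all 7 lie left of 0, while 15 of 21 points of the PI3K, AKT and mTOR list are open; the outermost points of the top list, IGFBP6 and IGFBP7, rest on at most 21 counts per library.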

How the data were processed

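Total RNA of 6 SK-N-BE samples was sequenced from stranded, rRNA-depleted, paired-end libraries. The authors trimmed reads (Trimmomatic 0.39, Cutadapt 3.2, per the labels), removed rRNA reads (Bowtie2 2.4.2) and aligned the rest to GRCh38 (STAR 2.7.7a). The deposited counts are raw fragments per Ensembl gene from the STAR gene counter, which drops multi-mapping and ambiguous fragments. The deposited FPKM values are the same counts scaled by gene length and library total, with no composition correction, and the gene length implied by the pair of tables was constant over libraries, within a relative tolerance of 0.0001, for each of the 22586 genes counted in 2 or more libraries. The strand setting of the counter is not given in the sources used here. Antisense neighbours appear to have been counted apart: 33.9% of 440 genes inside an exon of the opposite strand were detected, and 8.4% of 592 inside one on the same strand.

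Groups and replicate numbers came from the sample titles. Whether replicates were separate cultures is not given in the sources used here, so p-values measure the spread between these samples, which may be technical. The 13966 genes whose group mean reached 1 FPKM in si-SCR or si-CyCoNP were tested with edgeR 4.0.16 (R 4.3.3; TMM, quasi-likelihood, Benjamini-Hochberg), a procedure tested on simulated data. The study's methods name DESeq2; DESeq2 1.42.0 and limma 3.58.1 (on log2 FPKM with a pseudocount) were among 15 alternatives, beside other scalings and filters, a replicate block and fits without each library. Shares and ratios had exact permutation tests. Approximate 95% intervals are the estimate and its standard error under a normal curve. Coordinates, exons and 3′ UTRs came from GENCODE v44 on GRCh38, a later release than the one used for counting. Besides the members, CyCoNP, INS-IGF2 and the 5 genes most like IGF2, at most 4 genes per list were to be named, those that passed the adjusted p of 0.05 with over 0.5 in log2 fold change. IGF2-AS, IGFBP4, IGFBPL1, ADAM12, E2F3, CTCF, KCNQ1OT1, H19 and the genes at 0 were named after their values were seen. A gene that this rule gives and a seed match are not reported here. The members and lists were chosen with earlier results of these data known. The planned seed search held miR-4492 alone, and let-7a was added to it.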

Additional observations from a re-analysis of the deposited data

How the results depend on the processing

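The rises of IGF2 and IGF2BP1 passed in all 15 alternative fits. Leaving out 1 library gave log2 fold changes of -0.30 to -0.10 for IGF1R, -0.04 to 0.06 for IGF2R, -0.52 to -0.28 for INSR, -1.30 to -0.72 for IGFBP5 and -0.30 to -0.14 for IGF2BP3, with 1 to 3 members lower and 0 to 1 beyond a log2 fold change of 1. INSR no longer passed with DESeq2 (-0.40), library totals alone (-0.33) or limma on FPKM with pseudocounts of 1 (-0.25) and 0.1 (-0.31), and IGFBP5 no longer passed with limma (-0.69 and -0.84). IGF1R passed with no minimum level (-0.23). The number of members that fell was 1 with DESeq2, with library totals alone and at an adjusted p under 0.01, and 0 in both limma tests. The number beyond a log2 fold change of 1 was 0 with library totals alone and in both limma tests, and 2 with no minimum level. Counts in place of FPKM turned the difference in the IGFBP2 share from -1.11 to 3.74 percentage points and made that in the ratio of IGF2 to IGF2R 3.82 in place of 10.9. Counts are not divided by gene length, which was 6259 bases for IGF2 and 17843 for IGF2R, so the change in the ratio is one of unit. The cause of the lost calls was not tested.

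Same-numbered libraries of the 2 groups correlated at 0.0907, 0.0727 and 0.108 in their deviations from the group means, and other pairs at -0.0666 to -0.0228. Every library was closest to its own number, a hint from the data and not from the design, but not every same-numbered pair was over 0.1, and the numbers were not taken as pairs. With the replicate block, 5 sorting genes rose and 1 receptor substrate fell, in place of 3 and 0, and over all genes 2403 rose and 2368 fell, against 1982 and 1990 without it. In that fit 4 members fell and 0 went beyond a log2 fold change of 1, and IGF1R (-0.23) and IGF2BP3 (-0.22) passed.

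At 3 libraries per group the exact tests cannot go below 0.1. IGFBP6 and IGFBP7 rest on few counts, and IGFBP3 and IGF2BP2 lay below the level for testing. Shared exons limit IGF2. Counting intervals would cover counting error only.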
